A study of Triticum aestivum with 16 samples.

Results

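Among the wheat genes measured in the cultivar Zhengmai7698 (ZM7698), 25 were transcribed in one of the genotypes compared and at or near 0 in the other. They were chosen by level. A gene had to reach 0.5 TPM or more (TPM is a share of a library's transcripts, corrected for gene length) in all 4 libraries of one genotype, 2 of shoot apex and 2 of axillary bud, and 0.1 TPM or less in all 4 libraries of the other. Genes on chromosomes 5B and 6D, as read from the identifiers, were left out. Of 107891 wheat gene identifiers in the tables, 98311 lie off these chromosomes, and 45105 of these could have met the rule because they reached 0.5 TPM in all 4 libraries of at least 1 genotype. They are called eligible genes here. The mutant line M6 expressed 15 genes that the wild type (WT) did not, 0.0333% of the eligible genes, and WT expressed 10 genes that M6 did not, 0.0222%. These groups are called M6-only and WT-only genes. Since the contrast of M6 and WT chose them, their levels in the 2 genotypes are a description, with no test.

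M6 is labelled as carrying mutations in the A, B and D copies of TaSPL7 and of TaSPL15 in the ZM7698 background, and WT is unmutated ZM7698. All ZM7698 plants were 2 weeks old, and the axillary buds were 1.0 to 2.0 cm long. AiKang58 (AK58), a second cultivar, gave leaf, root and shoot apex at 2 weeks and axillary buds of the same length at 6 weeks, the latter from plants kept at 4 °C for 30 days. Each of the 8 groups held 2 messenger RNA libraries. All plants grew with 16 h of light at 22 °C and 8 h of dark at 19 °C. How M6 was made, how many plants went into a library, and whether replicates were separate plants are not given in the sources used here, so a p-value here speaks of the spread between these libraries alone.

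SQUAMOSA PROMOTER BINDING PROTEIN-LIKE (SPL) proteins are plant transcription factors known for roles in branching, phase change and flowering. Bread wheat is a hexaploid with 3 subgenomes, so most genes exist as A, B and D copies, and the loss of 1 copy can go unnoticed in the plant. Wheat lines are also known to differ in which genes they carry and express. In the wheat reference annotation the identifiers are numbered in order along each chromosome, which makes neighbours readable from the numbers. Neither the tables nor the reference pair the 25 identifiers with gene names or functions, so none is named. The same holds for TaSPL7, TaSPL15 and tissue markers, so the genotype and tissue labels were not checked on them. A level near 0 does not say whether a gene is missing or only silent in a line, and this was not tested.

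The ZM7698 libraries listed 70761 to 73647 identifiers above 0 in WT and 70100 to 73715 in M6; their depth is unknown. The AK58 libraries corresponded to 51497044 to 79585209 reads. The AK58 root replicates stood apart, with a correlation of 0.884 on the log2 scale over all wheat genes, against 0.981 to 0.989 in the other AK58 tissues. In ZM7698 the M6 bud replicates had the lowest correlation, 0.974, against 0.986 to 0.992 in the other groups.

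The M6-only genes spanned a wide range of levels in M6. Their mean TPM over the 4 M6 libraries had a median of 2.20 and ran from 0.593 to 38.7, while the median over the 43948 genes expressed in M6 was 4.69. In WT, 45 of their 60 values were listed at 0, and the highest was 0.0800 TPM. The WT-only genes had a median of 1.53 TPM in WT and ran from 0.936 to 7.24, where the median over the 43638 genes expressed in WT was 4.73. In M6, 31 of their 40 values were listed at 0, and the highest was 0.0682 TPM. Listed at 0 in all 4 libraries of the other genotype were 8 M6-only and 6 WT-only genes. The spread between the 4 libraries of the expressing genotype, as SD over mean, had a median of 14.0% for M6-only genes and 16.7% for all genes expressed in M6. For WT-only genes it was 23.6%, against 13.3% for all genes expressed in WT. The sets compared were not matched for level, and the part of level in these spreads was not tested.

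The highest level of all belonged to TraesCS3D02G504400, on chromosome 3D. The M6 apex libraries held 40.2 and 39.2 TPM, and the M6 bud libraries held 38.6 and 36.7 TPM, a mean of 38.7 ± 1.46 TPM (SD, n = 4). In WT it was listed at 0 in 3 libraries and at 0.0261 TPM in apex replicate 2. No other of the 25 genes varied so little between its libraries, with an SD of 3.79% of the mean. TraesCS1B02G045700 was next among the M6-only genes, at 6.52 and 5.26 TPM in the M6 apex and 4.78 and 6.15 TPM in the M6 bud. It kept a trace in every WT library, between 0.0381 and 0.0673 TPM. TraesCS3D02G233200 had 3.57 and 3.36 TPM in M6 apices and 4.22 and 2.48 TPM in M6 buds, against at most 0.0125 TPM in WT. TraesCS3B02G357700 had 2.62 and 2.16 TPM in the M6 apex and 2.51 and 2.80 TPM in the M6 bud. Its WT bud libraries, at 0.0690 and 0.0800 TPM, came closest of any M6-only gene to the limit of 0.1, while its WT apex libraries were listed at 0.

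TraesCS6B02G463100 was the highest WT-only gene, at 7.89 and 7.51 TPM in the WT apex and 6.28 and 7.27 TPM in the WT bud, a mean of 7.24 ± 0.687 TPM (SD, n = 4), and it was listed at 0 in all M6 libraries. TraesCS3A02G131600 followed at 2.59 and 3.78 TPM in the WT apex and 3.02 and 3.19 TPM in the WT bud, again listed at 0 throughout M6. TraesCSU02G204500, on no numbered chromosome, had 1.72 and 2.04 TPM in the WT apex and 0.681 and 1.87 TPM in the WT bud. In M6 it was above 0 only in apex replicate 1, at 0.0268 TPM. TraesCS7A02G440600 varied more, at 1.81 and 1.21 TPM in the WT apex and 0.811 and 2.31 TPM in the WT bud, and was listed at 0 in M6. TraesCS7B02G496900, with 0.978 to 1.65 TPM in WT, and TraesCS6A02G199400, with 0.802 to 1.20 TPM, were also listed at 0 in M6. TraesCS5A02G103700 was the WT-only gene with the most signal left in M6, between 0.0466 and 0.0682 TPM, beside 0.809 to 1.25 TPM in WT.

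**Figure D1:**
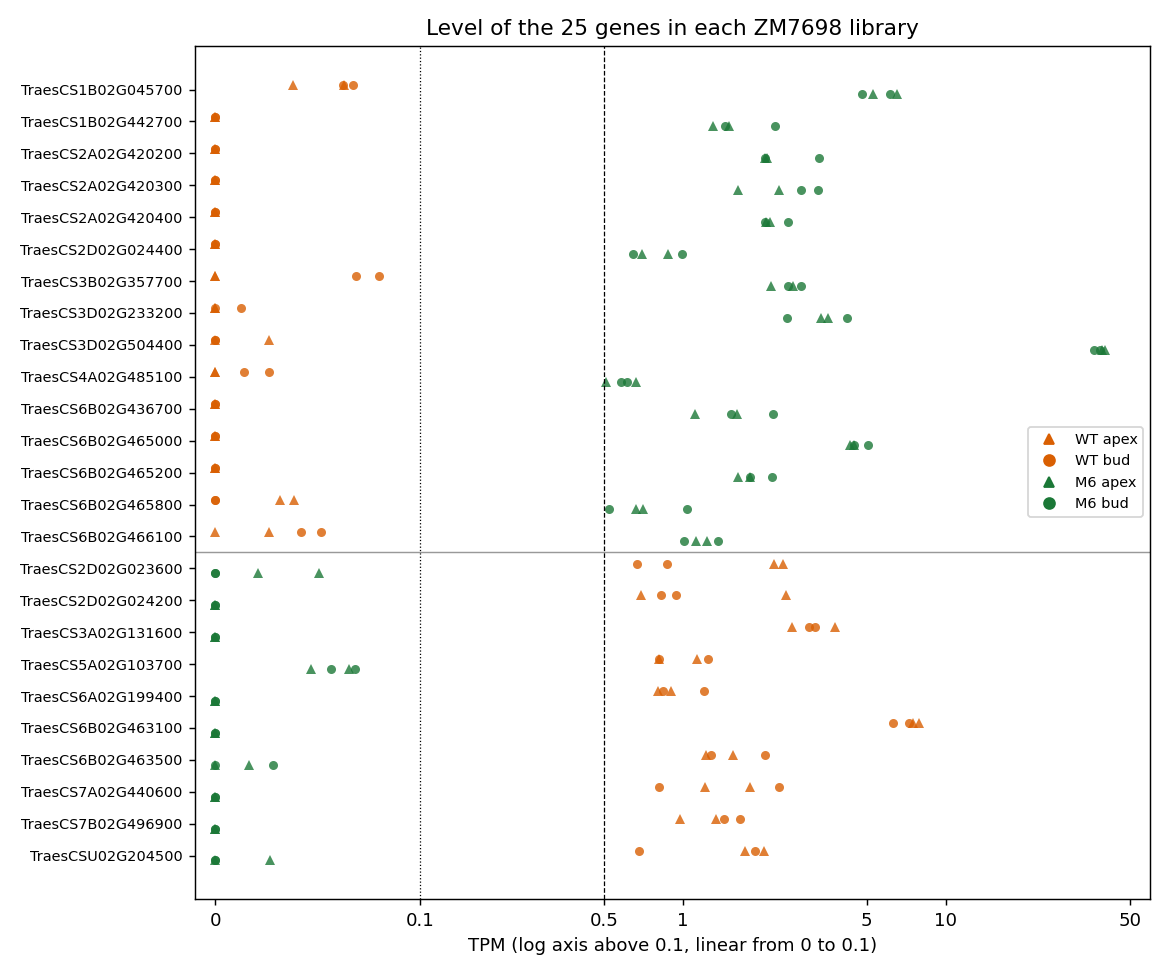
TPM of each of the 25 genes (rows) in the 8 ZM7698 libraries, on an axis that is logarithmic above 0.1; triangles are apex and circles bud libraries, orange is WT and green M6, and the dotted and dashed lines are 0.1 and 0.5 TPM. The upper 15 genes are M6-only and the lower 10 WT-only, with TraesCS3D02G504400 far to the right at 36.7 to 40.2 TPM.

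Some genes lay close to the limits. The M6-only gene nearest to 0.5 TPM was TraesCS4A02G485100, whose lowest M6 library held 0.509 TPM, and just outside was TraesCS3D02G115000, with 0.434 TPM in its lowest M6 library and 0 in WT. Among WT-only genes TraesCS2D02G023600 was the nearest, at 0.671 TPM, and TraesCS7B02G171400 fell outside at 0.460 TPM. On the other limit, TraesCS7B02G227900 missed the M6-only group with up to 0.121 TPM in WT, and TraesCS7A02G102800 missed the WT-only group with up to 0.108 TPM in M6 beside at least 2.94 TPM in WT. A stricter level of 1 TPM kept 12 M6-only but 3 WT-only genes.

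The 25 genes were uneven along the genome. Chromosome 6B held 7, 5 M6-only and 2 WT-only, which was 0.346% of its 2022 eligible genes. Chromosomes 2A and 2D held 3 each, 0.113% and 0.110% of their eligible genes, and 1B and 3D held 2 each. Chromosomes 3A, 3B, 4A, 5A, 6A, 7A and 7B had 1 each, 1 gene had no numbered chromosome, and 1A, 1D, 2B, 4B, 4D, 5D and 7D had 0. The chromosomes set aside gave 15 genes at the same levels on 5B, 0.563% of its eligible genes, and 3 on 6D, 0.153%. By subgenome, A held 8 of the 25, B held 11 and D held 5, where A, B and D held 36.7%, 29.4% and 32.7% of the eligible genes.

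Many lay near chromosome ends in the order of identifiers. Of the 24 genes on numbered chromosomes, 16 fell in the first or last of 5 equal bins of that order (66.7%), where 30.9% of the eligible genes lie, and 11 of these were in the last bin. Neighbours share a place, so genes within 10 identifiers of each other were also counted once. This left 17 places, 16 of them on numbered chromosomes, and 10 of the 16 lay in the outer bins (62.5%). The cluster near the end of 6B, described below, still made up separate places in this count, all in the last bin. The bins hold equal numbers of identifiers and not equal lengths of chromosome, since genes are sparse around centromeres.

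**Figure D2:**
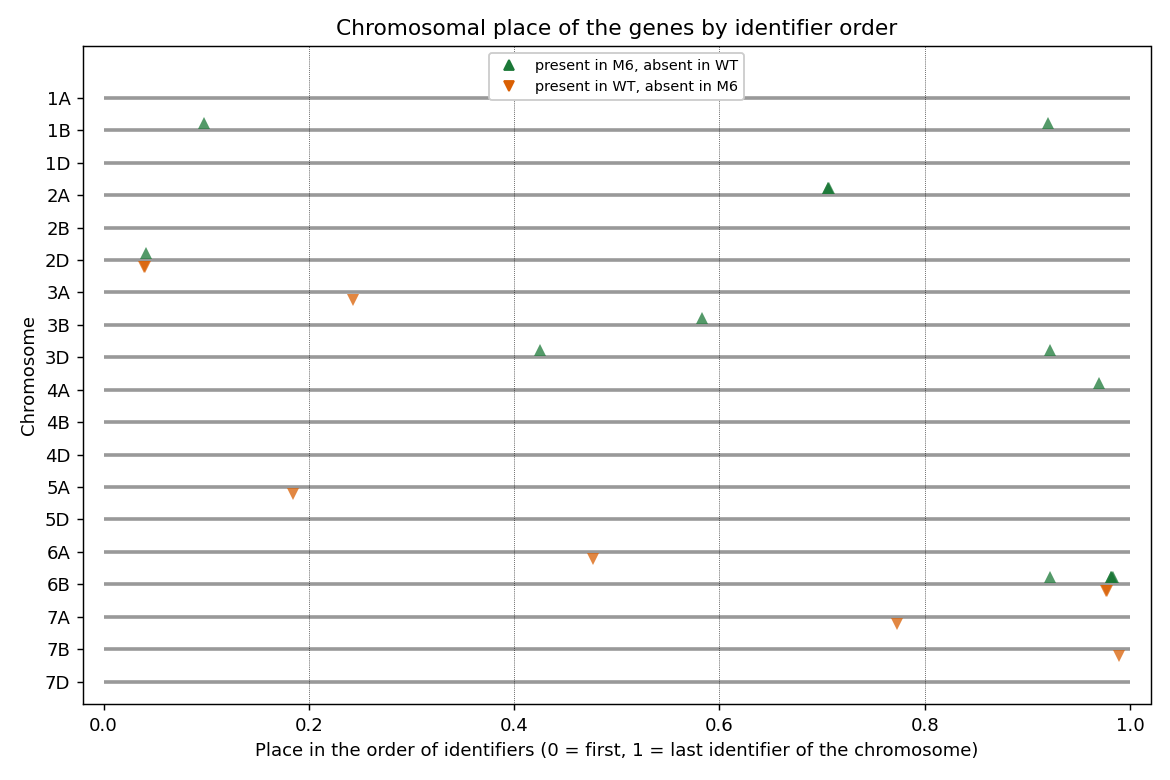
Place of 24 of the 25 genes along the 19 chromosomes counted, as the share of identifiers passed from the first (0) to the last (1); green triangles above a line are M6-only, orange ones below it WT-only, and dotted lines part the 5 bins. Symbols overlap for the 3 genes on 2A, the 2 WT-only genes on 2D, and on 6B near the right end, where the 2 WT-only genes overlap and 4 of the 5 M6-only genes do.

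Runs of neighbours held 8 of the 15 M6-only genes and 2 or 4 of the 10 WT-only genes, by how a run is defined. A run was taken as 2 or more of these genes with no other eligible gene between them. There were 4 runs with 10 genes, 8 M6-only and 2 WT-only; 2 runs were of M6-only genes alone and 2 were mixed. With neighbours taken instead as genes within 10 identifiers of each other, there were again 4 runs, with 12 genes, 8 M6-only and 4 WT-only, and 1 run was mixed. Both definitions pointed to the same places on 2A, 2D and 6B.

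On chromosome 2A, 3 consecutive identifiers were M6-only. TraesCS2A02G420200 stood at 2.05 and 2.10 TPM in the M6 apex and 3.29 and 2.05 TPM in the M6 bud. TraesCS2A02G420300 had 2.32 and 1.62 TPM in M6 apices and 3.25 and 2.82 TPM in M6 buds, and TraesCS2A02G420400 had 2.14 and 2.07 TPM in apices and 2.52 and 2.06 TPM in buds. All of these were listed at 0 in every WT library, and their means in M6, 2.37, 2.50 and 2.20 TPM, were close to each other. The eligible genes around them did not follow. Within 10 identifiers of any of these genes, 0 of the 11 eligible others had genotypes that did not overlap and means at least 2-fold apart, a criterion chosen after values were seen. Over all 45080 eligible genes outside the 25, 0.912% met it, 0.532% higher and 0.379% lower in M6.

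On chromosome 2D the directions met within 9 identifiers. TraesCS2D02G023600 was WT-only, at 2.40 and 2.23 TPM in the WT apex and 0.671 and 0.866 TPM in the WT bud. TraesCS2D02G024200 was WT-only too, at 2.47 and 0.691 TPM in the WT apex and 0.824 and 0.940 TPM in the WT bud. Only 2 identifiers on, TraesCS2D02G024400 was M6-only, at 0.698 and 0.875 TPM in the M6 apex and 0.988 and 0.648 TPM in the M6 bud, and it was listed at 0 in WT. The next identifiers leaned the same way without being absent. The mean of TraesCS2D02G024500 was 0.409 ± 0.0661 TPM (SD, n = 4) among WT libraries, and 2.34 ± 0.262 TPM (SD, n = 4) among M6 libraries. For TraesCS2D02G024600 WT averaged 1.21 ± 0.209 TPM (SD, n = 4), whereas M6 averaged 3.29 ± 0.516 TPM (SD, n = 4). Neither gene's WT libraries reached the lowest M6 library.

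The largest cluster lay near the end of 6B, with 6 of the 25 genes within 31 identifiers that held 8 eligible genes. It opened with the WT-only gene TraesCS6B02G463100, given above. Next to it TraesCS6B02G463200 was low but not absent in M6, with an M6 mean of 0.312 ± 0.0972 TPM (SD, n = 4), against a WT mean of 2.60 ± 0.130 TPM (SD, n = 4). The WT-only gene TraesCS6B02G463500 stood at 1.22 and 1.55 TPM in the WT apex and 1.28 and 2.05 TPM in the WT bud, and reached at most 0.0282 TPM in M6. From there on the direction of the genes counted turned. TraesCS6B02G465000 was M6-only at 4.30 and 4.48 TPM in the M6 apex and 5.06 and 4.47 TPM in the M6 bud, and TraesCS6B02G465200 at 1.62 and 1.79 TPM in apices and 2.18 and 1.80 TPM in buds, both listed at 0 in WT. TraesCS6B02G465800 held 0.663 and 0.708 TPM in the M6 apex and 1.03 and 0.526 TPM in the M6 bud, against at most 0.0385 TPM in WT. TraesCS6B02G466100, the last of the cluster, held 1.24 and 1.12 TPM in the M6 apex and 1.01 and 1.35 TPM in the M6 bud, against at most 0.0515 TPM in WT. The next eligible gene, TraesCS6B02G466400, went the other way, with 5.15 to 7.10 TPM in M6 and 8.37 to 9.99 TPM in WT. The libraries of TraesCS6B02G466600 overlapped between the genotypes. Further on TraesCS6B02G466700 averaged 12.3 ± 9.18 TPM (SD, n = 4) over the M6 libraries, where WT averaged 0.815 ± 0.359 TPM (SD, n = 4). TraesCS6B02G466900 likewise averaged 3.12 ± 2.03 TPM (SD, n = 4) in M6, where WT averaged 0.368 ± 0.241 TPM (SD, n = 4). In both of these M6 bud replicate 1 was the highest library, at 26.0 and 5.84 TPM, and the M6 and WT libraries did not overlap. TraesCS6B02G436700, the remaining M6-only gene of 6B, stood apart from the cluster, with 1.11 to 2.21 TPM in M6 and 0 in WT.

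**Figure D3:**
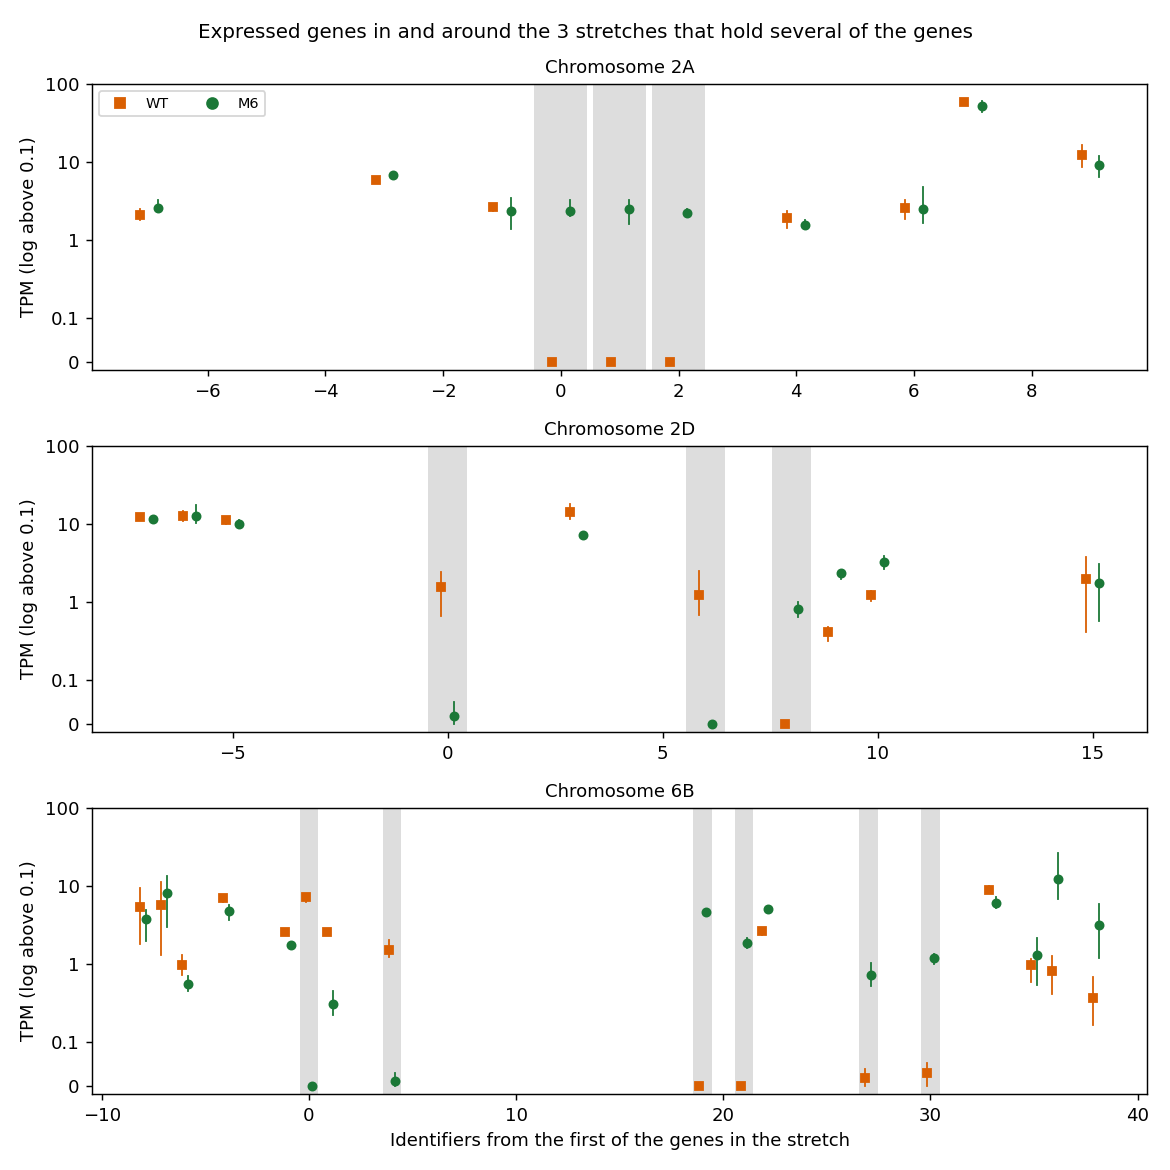
Mean TPM in WT (orange squares) and M6 (green circles) of the eligible genes in and around the stretches on 2A, 2D and 6B, with lines from the lowest to the highest of 4 libraries, against the number of identifiers from the first of the genes; the axis is logarithmic above 0.1 TPM and grey bands mark the genes counted. On 2A the flanking genes have like means in both genotypes, whereas on 2D and 6B WT-only genes stand at the left and M6-only genes at the right.

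Eligible neighbours were also counted for all 25 genes. Within 10 identifiers lay 123 eligible genes outside the 25, of which 8 were higher and 2 lower in M6 by the criterion of non-overlapping libraries and 2-fold means, 8.13% in all. The share over all 45080 eligible genes outside the 25 was 0.912%. Around the runs on 2A, 2D and 6B 5 of 31 neighbours met the criterion, and around the other genes 5 of 92. TraesCS1B02G442700, an M6-only gene with 1.31 to 2.23 TPM in M6 and 0 in WT, had 2 of them, both higher in M6. TraesCS1B02G441700 ran from 7.22 to 10.3 TPM over the M6 libraries and from 2.59 to 3.80 TPM over those of WT, and TraesCS1B02G443700 from 2.73 to 7.40 TPM and from 0.419 to 2.14 TPM. TraesCS3A02G131600 had 1 of each kind beside it, TraesCS3A02G131200 lower and TraesCS3A02G132000 higher in M6. Next to TraesCS7A02G440600, TraesCS7A02G440400 was higher in M6, where it averaged 2.15 ± 1.18 TPM (SD, n = 4), against 0.366 ± 0.0418 TPM (SD, n = 4) for WT. TraesCS3D02G504400, for all its level, had 4 eligible neighbours and 0 of them differed in this way. For TraesCS7B02G496900 and TraesCSU02G204500 there was no eligible neighbour in the window.

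AK58 was not used to choose the genes, so its libraries show which of them a second cultivar transcribes. The AK58 values are reads scaled per library. They carry no correction for the length of a gene, so each gene was compared with itself across tissues, and none was set against TPM. With 10 normalised reads in both libraries of a tissue taken as detected, 12 of the 15 M6-only genes and 5 of the 10 WT-only genes were detected in at least 1 AK58 tissue. Among all eligible genes the share was 97.8%. In all 4 tissues 7 M6-only and 3 WT-only genes were detected, against 79.4% of eligible genes. The 25 genes were also lower than the eligible genes in ZM7698, as given above, and the part of that lower level in these counts was not tested.

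No read at all was counted in any AK58 library for 2 M6-only and 4 WT-only genes, while 0.973% of eligible genes had none. The M6-only ones were TraesCS3D02G504400, the highest of the 25 in ZM7698, and TraesCS3B02G357700. The WT-only ones were TraesCS2D02G023600, TraesCS2D02G024200, TraesCS3A02G131600 and TraesCS6A02G199400. A count of 0 allows up to 3 reads, which is 2.16 to 3.29 normalised reads depending on the library, and covers counting error only. TraesCS4A02G485100 had reads in root replicate 2 alone, at 1.88 normalised reads, and TraesCSU02G204500 reached 4.49 and 2.82 in root and at most 0.849 elsewhere.

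In the 3 stretches AK58 did not side with 1 genotype throughout. On 2A it expressed the M6-only genes, though not all of them in every tissue. TraesCS2A02G420200 stood at 91.1 and 130.5 normalised reads in leaf and 44.1 and 32.9 in root. In apex it had 202 and 129.8, and in bud 112 and 124. TraesCS2A02G420300 ran from 7.53 to 56.0 over the 8 libraries and was not detected in root. TraesCS2A02G420400 ran from 1.70 to 69.4 and was detected in leaf and bud only. Its replicates stood at 41.8 and 1.70 in apex and 18.7 and 3.76 in root. On 2D it expressed the M6-only gene TraesCS2D02G024400, at 233 and 156 normalised reads in leaf, 89.0 and 146 in root, 72.7 and 137 in apex and 56.9 and 56.7 in bud, while both WT-only genes beside it had 0 reads. On 6B it expressed genes of both kinds. The WT-only gene TraesCS6B02G463100 had 430.2 and 524 in leaf, 445 and 258 in root, 1323 and 1186 in apex and 658 and 623 in bud. The M6-only gene TraesCS6B02G465000 had 459 and 459.9 in leaf, 205 and 41.4 in root, 371 and 72.1 in apex and 197 and 291 in bud. All 6 genes of the 6B cluster were detected in at least 3 AK58 tissues.

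**Figure D4:**
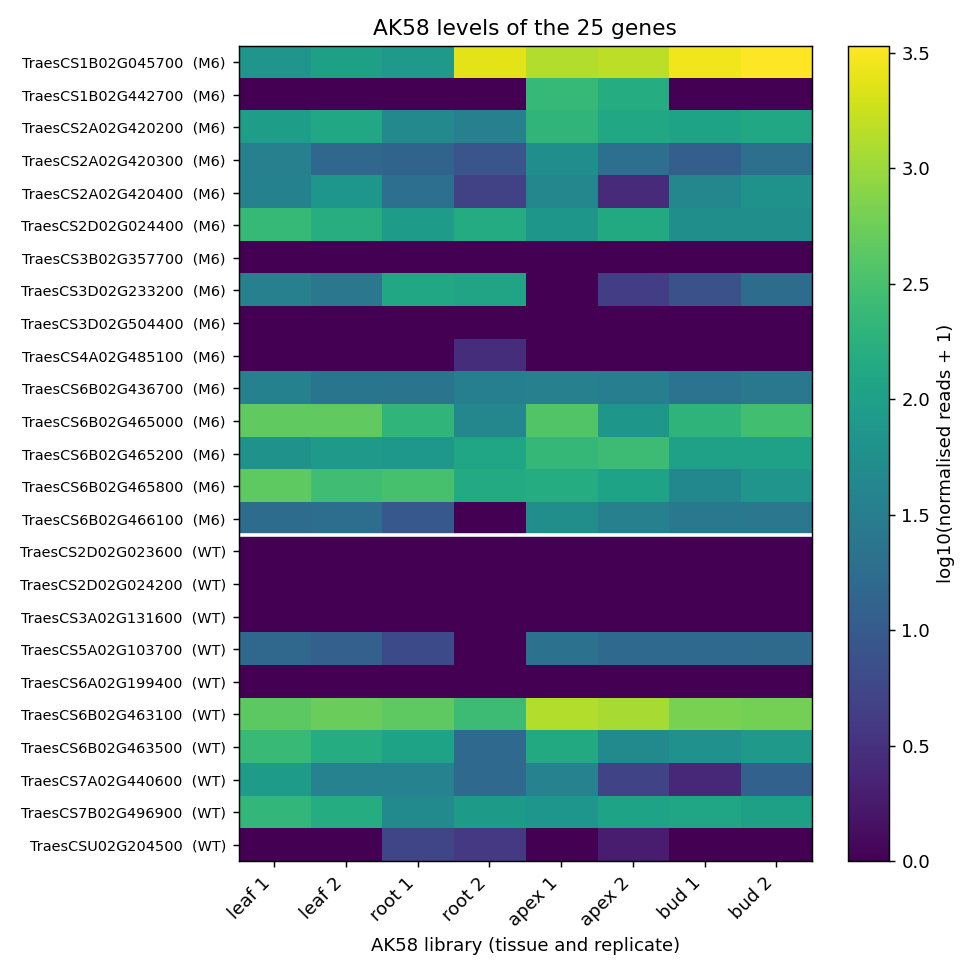
AK58 levels of the 25 genes as log10 of normalised reads + 1 in the 8 libraries, dark for 0 and yellow for the highest, with M6-only genes above the white line and WT-only genes below it. TraesCS1B02G442700 is lit in the apex libraries alone, and 6 rows are dark throughout.

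The tissues of AK58 were compared by a fit over all genes, in which 12 M6-only and 5 WT-only genes passed the filter on low values. In the bud against the apex 1 M6-only gene fell and 0 rose, where 8.12% of the 69525 genes tested fell and 9.7% rose. With edgeR it was again 1 that fell and 0 that rose, where 4.43% fell and 7.98% rose. The WT-only genes gave 0 calls in limma, with 1 at an unadjusted p under 0.05, and 0 in edgeR, with 0 at that level. Of all 69525 genes tested, 23123 met that level in limma and 20861 in edgeR. The median log2 change was -0.65 for the M6-only and -0.26 for the WT-only genes tested, against -0.07 over all genes tested. The gene that fell was TraesCS1B02G442700, at 231 and 154 normalised reads in the apex and 0 in the bud, leaf and root libraries. Its apex mean, 192 normalised reads, was at least 83.0-fold above bud, 63.3-fold above leaf and 75.8-fold above root. These folds take 3 reads in each library as the floor and leave out the spread between the apex libraries. For bud against apex the limma adjusted p was 0.000830 and the edgeR adjusted p 0.0246. Over the limma and edgeR alternatives that left no tissue with a single library, the adjusted p ran from 0.000106 to 0.0248. The 6 libraries at 0 lend their lack of spread to the error, so its spread rests on the apex pair. These p-values may overstate the evidence. TraesCS1B02G442700 was also the 1 gene of the 25 called above all other AK58 tissues in a single tissue, in limma and in edgeR. The same limit holds for that call. Of all genes tested, limma called 15% for some tissue, with 3.93% for leaf, 7.09% for root, 2.77% for apex and 1.17% for bud, and edgeR called 9.6%. With apex replicate 1 or apex replicate 2 left out the gene was not tested and M6-only calls came to 0, because only 1 library above the filter remained. AK58 buds were older than the apices and had been in the cold, so tissue, age and cold cannot be told apart. In the M6 libraries the same gene was not confined to the apex, with 1.31 and 1.49 TPM there and 2.23 and 1.44 TPM in the bud.

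Other AK58 calls depended on whether the root libraries were in the fit. The limma change from apex to bud is a difference of 2 tissue means, so it cannot change with root left out. By normalised reads, a ranking that gene length can affect, TraesCS1B02G045700 stood highest of the 25. It had 2842 and 3383 normalised reads in bud, 1305 and 1507 in apex and 69.1 and 99.9 in leaf. In root it had 80.0 in replicate 1 and 2433 in replicate 2, and its change of 1.14 ± 1.41 (log2, SE) from apex to bud did not pass (limma adjusted p = 0.637). With both root libraries left out, the same change had an SE of 0.25 and passed (limma adjusted p = 0.00963), as did the rise of TraesCS3D02G233200 by 2.45 ± 0.81 (log2, SE; limma adjusted p = 0.0474). In that fit TraesCS6B02G465200 and TraesCS6B02G465800 fell by 1.23 and 1.24 on the log2 scale (limma adjusted p = 0.0198 and 0.0416), so that 2 M6-only genes rose and 3 fell, where 17.5% of 64722 genes rose and 18.7% fell. Leaving out root replicate 1 alone or root replicate 2 alone also moved the counts. In the fit without root 4 M6-only genes were called for a single tissue, TraesCS1B02G045700 for bud, TraesCS1B02G442700 and TraesCS6B02G465200 for apex and TraesCS6B02G465800 for leaf, where 5.43%, 12.3% and 13.6% of all genes were called for these tissues. With all libraries TraesCS3D02G233200 stood at 130.1 and 114 normalised reads in root, 32.9 and 24.1 in leaf, 0 and 3.39 in apex and 6.49 and 16.4 in bud. Its root libraries were the highest, and the apex libraries the lowest. TraesCS6B02G465200 was highest in the apex, at 226 and 264, against 102 and 105 in bud, 64.8 and 80.5 in leaf and 76.3 and 119 in root. TraesCS6B02G465800 was high in leaf, at 446 and 277, and low in bud, at 44.0 and 67.4, with 318 and 142 in root and 152 and 111 in apex, so that its root and apex libraries overlapped. TraesCS7B02G496900 and TraesCS6B02G463500, both WT-only, had their highest means in leaf, at 187 ± 45.9 and 196 ± 61.2 normalised reads (SD, n = 2). TraesCS6B02G436700 was nearly level across AK58, at 20.9 to 34.0 normalised reads.

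In ZM7698, bud and apex of the expressing genotype were compared. The choice of genes did not use this contrast, but it required 0.5 TPM or more in both tissues. Genes low in 1 tissue were thus left out beforehand, which the shares over all genes below do not share. The number of calls therefore cannot show whether genes of this kind differ less between tissues than others. Adding 1 before the logarithm also shrinks the changes of genes at low TPM, as most of these genes are. None of the tested genes was called: limma gave 0 of 8 WT-only genes in WT, with 1 at an unadjusted p under 0.05, and 0 of 12 M6-only genes in M6, with 0 at that level. That unadjusted level was met by 9928 of all 48171 genes tested in WT and by 4324 of 48131 in M6. Over all genes, 2.04% rose and 0.924% fell in the WT bud of 48171 tested, and 0.00623% rose and 0% fell in the M6 bud of 48131 tested. With all 8 ZM7698 libraries in 1 fit the calls were again 0, with 1 gene at an unadjusted p under 0.05 in each genotype. Over all genes of that fit 8778 met this level in WT and 5940 in M6. Of 50878 genes in that fit 1.61% rose and 0.884% fell in the WT bud, and 0.0334% rose and 0.055% fell in the M6 bud. The counts over all genes moved when 1 of the 4 libraries was left out, where the lone library of a tissue is assumed to vary like the other tissue. The WT count of 983 higher and 445 lower became 1115 and 1059 without apex replicate 1, 987 and 235 without apex replicate 2, and 0 and 0 without either bud replicate. The M6 count of 3 higher and 0 lower became 1 and 0 without apex replicate 1, 0 and 0 without apex replicate 2, 1 and 1 without bud replicate 1, and 1588 and 762 without bud replicate 2. The 4-library fits were preferred because a gene at 0 in the other genotype lends that genotype's lack of spread to its error. Apex over bud, as a ratio of mean TPM, ran from 0.649 to 1.08 for the M6-only genes, with a median of 0.921, and from 0.755 to 3.01 for the WT-only genes, with a median of 0.996.

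The widest tissue difference was that of TraesCS2D02G023600, with 2.40 and 2.23 TPM in the WT apex and 0.671 and 0.866 TPM in the WT bud. Its apex libraries both lay above its bud libraries. In mean TPM the apex stood 3.01-fold above the bud. The limma adjusted p was 0.0349 and did not stay below 0.05 in all alternatives. With 1 added to each TPM, the log2 change was -0.91 ± 0.13 (SE), smaller than the change of 1 that a call needed. With 0.1 TPM in place of 1 added before the logarithm, it was -1.48 ± 0.22 (SE; limma adjusted p = 0.0396) and was called. Its neighbour TraesCS2D02G024200 had apex libraries of 2.47 and 0.691 TPM on either side of its bud libraries. Single libraries moved with these values: M6 bud replicate 1 was above replicate 2 for 12 of the 15 M6-only genes, as for 62.5% of all genes expressed in M6, and WT bud replicate 1 was below replicate 2 for all 10 WT-only genes, where replicate 1 was higher for 33.6% of genes expressed in WT.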

How the data were processed

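The ZM7698 values are TPM as deposited by the authors. The AK58 tables carry the same name but hold a signal, per the values deposited: whole reads divided by 1 factor per library, called normalised reads here. Multiplied back, 100% of AK58 values came within 0.001 of a whole read. The submitters' processing notes name Trimmomatic, HISAT2 2.0.5 and StringTie 1.3.3b. The build, annotation and counting program are not given in the sources used here, and reads shared between near-identical or overlapping genes could have been split between them. The reference table matched 0 of 120744 identifiers, so no name or sequence is given.

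The members and lists were chosen with earlier results of these data known. Genes with 10 normalised reads, or 1 TPM, in at least 2 libraries were log2-transformed after adding 1 and fitted with limma 3.58.1 (R 4.3.3), its prior spread following the level, and p-values were adjusted over all genes by Benjamini-Hochberg. All 8 AK58 libraries, or the 4 of the expressing genotype, entered a fit. Genes were called at a log2 change of 1 or more either way with adjusted p below 0.05. As 1 was added first, a limma call at low TPM needs more than a 2-fold difference in TPM. An edgeR 4.0.16 quasi-likelihood test on the recovered AK58 reads was an alternative. The text names the 6 highest genes per direction, genes in runs, called genes, those with the most normalised reads in AK58 and those next to the limits. The others, and neighbours outside the 25, were named after their values were seen.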

Additional observations from a re-analysis of the deposited data

How the results depend on the processing

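The counts of genes chosen depend on the levels set. With 1 TPM as the present level there were 3 WT-only genes, and with 0 required in the other genotype 8 M6-only and 6 WT-only genes. Apex libraries alone gave 33 and 23, and bud libraries alone 33 and 21. Without each ZM7698 library in turn the counts ran from 15 to 16 and from 10 to 12. With 50 normalised reads needed in AK58, 8 M6-only and 3 WT-only genes were detected, beside 92.9% of eligible genes. For M6-only genes in the AK58 bud against the apex, leaving out both root libraries gave 2 higher and 3 lower. Over all genes this gave 11347 higher and 12107 lower of 64722, against 6746 and 5646 of 69525 with all libraries. Leaving out single libraries also moved the counts. For AK58 tissue-enriched M6-only genes the count was 2 with a pseudocount of 5 and 4 without both root libraries, and it moved with single libraries left out. Over all genes the enriched count was 11870 of 69525 and 20242 of 64722 in these 2 settings, against 10395 of 69525 in the first fit. Of the WT-only genes 1 was tissue-enriched with no filter, and 1 was called lower in the WT bud with a pseudocount of 0.1. Over all genes the same settings gave 12045 of 87193 and 526 of 48171. The cause of these shifts was not tested. Labels do not tie equal replicate numbers to a shared plant or day. Still, the differences of replicate 1 and replicate 2 in AK58 root and apex correlated at 0.430 over 69525 genes. Other pairs of AK58 tissues ran from -0.118 to 0.163, and apex and bud gave -0.152 in WT and 0.178 in M6. Whether same-numbered AK58 libraries share a source was not tested. With the replicate number as a block, M6-only calls in AK58 stayed at 0 higher and 1 lower and all ZM7698 counts at 0, although over all genes the M6 bud then had 276 higher and 762 lower, against 3 and 0. The 2 libraries per group limit every test, and AK58 levels near 3 reads are at the limit of counting.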

Other observations

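The same levels were applied between the tissues of ZM7698, over both genotypes and off chromosomes 5B and 6D. At 0.5 TPM or more in all 4 apex libraries and 0.1 TPM or less in all 4 bud libraries there were 57 genes, and 11 genes were present in bud and absent in apex. The genes that could have met these levels were not counted, so no share is given to set beside those between genotypes. These counts were not tested.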
